A study of Mus musculus with 8 samples.

Results

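The genes described here are the 3 Slit ligands (Slit1, Slit2 and Slit3), the 3 Robo receptors that bind or modulate them in the nervous system (Robo1, Robo2 and Robo3) and the 3 Slit-Robo GTPase-activating proteins (Srgap1, Srgap2 and Srgap3). They were taken as every non-control probe whose transcript identifier belongs to one of these 9 symbols in RefSeq, which gave 14 of the 39429 probes and 9 of the 20144 named genes on the array. All 9 genes had a probe bright enough to test, and 13 of the 14 probes passed that filter on low signals. RNA came from dissociated mouse hippocampal neurons grown for 10 days, given lentivirus and kept for 6 more days. The 4 control arrays are labelled as carrying GFP and the other 4 as carrying Flag-Nr4a1, an epitope-tagged form of the activity-induced orphan nuclear receptor Nr4a1, so both groups carried a lentiviral transgene. The labels give no promoter for either virus, no strain, age or sex of the mice, and nothing that says whether replicates came from separate cultures, so p-values measure the spread between these samples.

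Each array carried the culture's RNA in Cy5 and a commercial mouse reference RNA in Cy3, with no dye swap, and levels are given as log2 of culture over reference. A difference is Nr4a1-labelled minus GFP-labelled within the 4 labelled pairs (n = 4 arrays per group throughout), and its error is the standard error (SE) of the limma fit. A gene was called where limma's p, adjusted over 21116 features (named genes and unnamed transcripts), was under 0.05. The Nr4a1 probe itself (A_51_P239654) differed by 0.73, -0.36, 0.70 and 0.12 in replicates 1 to 4 (0.30 ± 0.15, SE; limma adjusted p = 0.196), so replicate 2 went against its label. The files used here do not place that probe within or outside the delivered sequence, and the groups are therefore called by their labels. All GFP-labelled arrays lay on slide 1 and all Nr4a1-labelled arrays on slides 2 and 3, so slide and transgene cannot be told apart in any difference below. Slide 3 held only Nr4a1-labelled replicate 4, whose pair is labelled batch 2.

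Slits are large secreted glycoproteins that bind the immunoglobulin domains of Robo receptors through leucine-rich repeats, in a complex strengthened by heparan sulphate. They are best known for repelling growth cones and for keeping axons from crossing or recrossing the midline, and they also act on dendrite branching and cell migration. The cytoplasmic part of Robo recruits adaptors and srGAPs, which bend or tubulate membranes through an F-BAR domain and switch off small GTPases such as Cdc42, and srGAPs also take part in filopodium formation and spine maturation.

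Slit2 and Slit3 rose in the Nr4a1-labelled cultures, by 3.54-fold and 1.73-fold, and Slit1 was 1.22-fold lower. No Robo receptor and no srGAP passed the test, so 2 of the 9 genes were called higher and 1 lower, where 24.4% of all features were called (12.8% higher and 11.5% lower). The groups did not overlap for the same 3 Slits, against 24.4% of all features without overlap (12.7% with the Nr4a1-labelled group higher and 11.7% with it lower). The median difference of the 9 genes was 0.04 and the median size of a difference, whatever its sign, was 0.18, beside -0.0034 and 0.11 over all features. The sign was the same in all 4 pairs for 6 of the 9 genes, beside 42.4% of features.

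**Figure D1:**
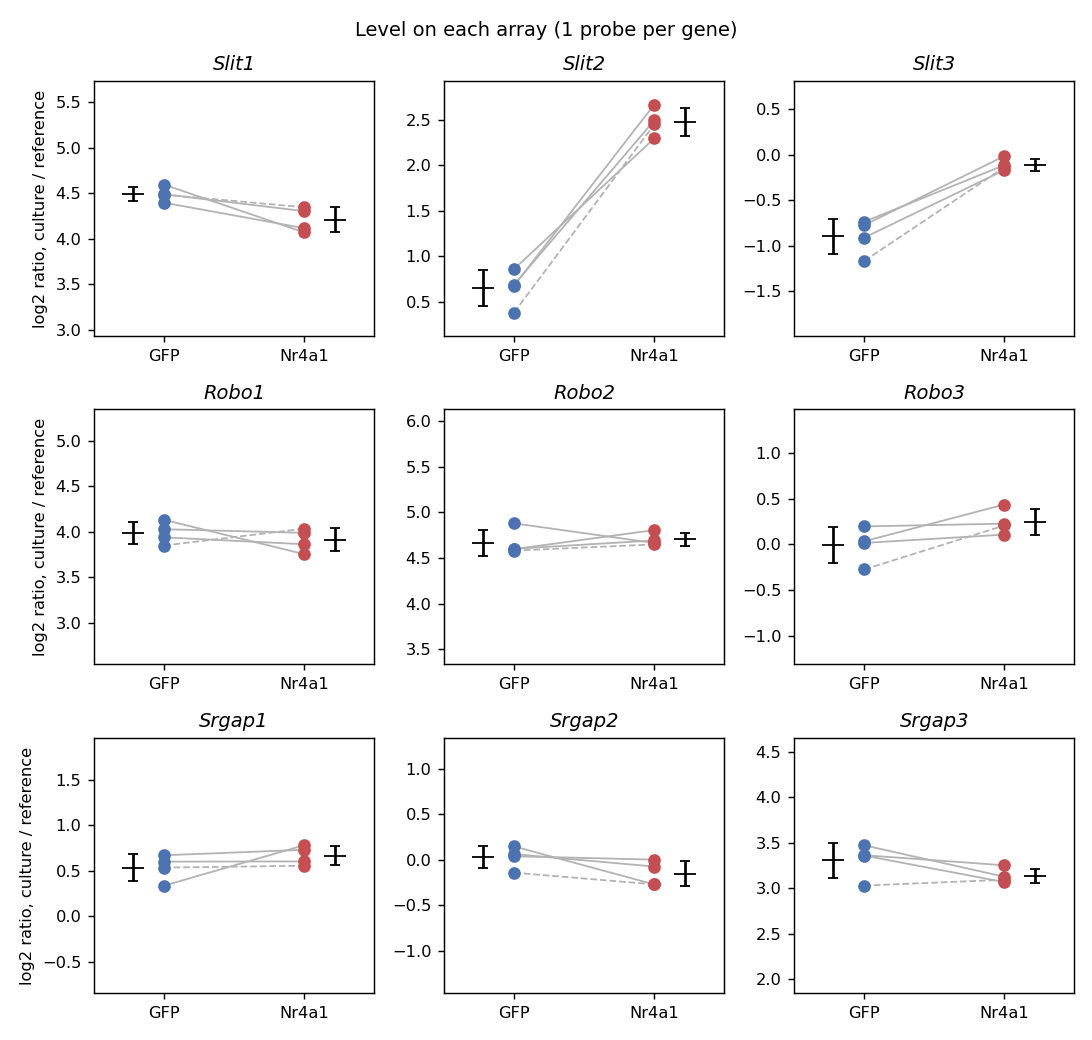
Log2 ratio of culture over reference RNA on each of the 8 arrays for the probe used for each of the 9 genes, with GFP-labelled arrays on the left and Nr4a1-labelled arrays on the right of each panel. Lines join the arrays of a pair (dashed for replicate 4, which is batch 2), and the symbols beside them give the mean ± SD of 4 arrays. The Slit2, Slit3 and Slit1 groups are apart, while the Robo and srGAP groups overlap.

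Slit2, the Slit whose cleavage fragments and Robo binding are best described, was the member with the largest difference. Its probe (A_55_P1958394) read 0.68, 0.69, 0.86 and 0.38 in GFP-labelled replicates 1 to 4, and 2.67, 2.49, 2.30 and 2.45 in the Nr4a1-labelled ones, in the same order. Every Nr4a1-labelled array lay above every GFP-labelled array, and the lowest of the former exceeded the highest of the latter by more than the range within either group. The mean went from 0.65 ± 0.20 to 2.48 ± 0.15 (SD, n = 4), a difference of 1.82 ± 0.10 (SE; 95% confidence interval 1.61 to 2.04; limma adjusted p = 1.33e-06). The pairs differed by 1.99, 1.80, 1.44 and 2.07, so the rise was present in both labelled batches. The Cy5 signal of the spot ran from 2720.5 to 4671.5 units on the GFP-labelled arrays and from 11638 to 18575 units on the Nr4a1-labelled arrays, while the reference signal stayed between 1828 and 2004 units over all 8. Taken as separate channels, the Cy5 log2 intensity differed by 1.90 and the Cy3 reference by 0.075. Slit2 was among the 0.53% of features called higher with at least a 2-fold difference. With Slit2 itself included, 18 features, or 0.0852% of those tested, differed upward by as much or more. These are measurements on whole cultures, in which more cells that make a transcript and more transcript per cell cannot be told apart.

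Slit3, the Slit with the widest expression outside the nervous system, was dimmer but moved the same way. Its probe (A_51_P301809) read -0.73, -0.77, -0.91 and -1.16 in GFP-labelled replicates 1 to 4, and -0.11, -0.01, -0.17 and -0.14 in the Nr4a1-labelled ones, in the same order. The Nr4a1-labelled arrays were again all above the GFP-labelled ones and lay closer together. The mean went from -0.90 ± 0.19 to -0.11 ± 0.07 (SD, n = 4), a difference of 0.79 ± 0.07 (SE; 95% interval 0.63 to 0.95; limma adjusted p = 5.55e-05). Pair differences were 0.62, 0.76, 0.74 and 1.03, of which the last is the pair of batch 2. Cy5 signals of 398 to 731 units on the GFP-labelled arrays stood against 899 to 1478 units on the Nr4a1-labelled arrays, and the reference stayed between 927 and 1123 units. A rise of this size or more was seen in 205 features, Slit3 included, or 0.971% of those tested.

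With slide added as a random block, neither rise passed the test (Slit2 1.89, limma adjusted p = 0.341; Slit3 0.85, adjusted p = 0.630), and only 0.0568% of all features did. No slide held arrays of both groups, so this setting cannot tell slide from transgene. Without replicate 2, whose Nr4a1 probe went against its label, Slit2 differed by 1.83 (limma adjusted p = 2.25e-07) and Slit3 by 0.80 (adjusted p = 6.6e-05).

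The promoters of the ligands that rose are shown because Nr4a1 is a transcription factor, which binds as a monomer to the NBRE, the letters AAAGGTCA. RefSeq windows of the GRCm38.p6 build, cut here to the 250 bases before each transcription start, were matched for 8 of the 9 genes (all but Slit1), in 10 windows. The lines below run 5′ to 3′ on the gene's strand, with 2 motifs in capitals. One is the GC box, GGGCGG or its reverse complement. The other is the TATA box, TATAAA, also searched on both strands.
Slit2, chr5:47982905-47983154, plus strand: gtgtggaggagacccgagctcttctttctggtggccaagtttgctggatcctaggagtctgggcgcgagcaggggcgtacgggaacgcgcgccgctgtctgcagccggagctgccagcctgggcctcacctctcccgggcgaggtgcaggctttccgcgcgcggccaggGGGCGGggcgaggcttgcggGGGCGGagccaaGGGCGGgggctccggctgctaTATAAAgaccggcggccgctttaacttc
Slit3, chr11:35121206-35121455, plus strand: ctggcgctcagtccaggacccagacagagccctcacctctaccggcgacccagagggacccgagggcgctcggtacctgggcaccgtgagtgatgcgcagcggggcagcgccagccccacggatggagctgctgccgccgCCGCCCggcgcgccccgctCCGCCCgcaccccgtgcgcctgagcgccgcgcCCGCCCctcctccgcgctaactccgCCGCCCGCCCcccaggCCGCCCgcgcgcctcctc
Slit2 has 3 GC boxes on the plus strand and a TATA box from 28 to 23 bases before the start, while Slit3 has 6 GC boxes, all on the minus strand and 2 of them overlapping, and no TATA box. Both windows are rich in CpG, with 25 sites in Slit2 and 35 in Slit3, against a median of 6 over all 32851 windows. As many sites or more were in 10.7% and 2.97% of all windows. AAAGGTCA, searched on both strands, was in 0 of the 10 windows of these genes and in 1.34% of all windows, and its core AGGTCA in 0 of 10 against 14% of all. GC boxes were in 6 of the 10 windows, 1 for each of 6 genes (Slit2, Slit3, Robo3, Srgap1, Srgap2 and Srgap3), against 32.7% of all windows. The TATA letters were in 2 windows, those of Slit2 and Srgap3, against 12.4%. A match, or its absence, describes only these letters in this window.

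Slit1, the Slit with the most neuron-restricted expression in the forebrain, went the other way by a small amount. Its probe (A_55_P1958379) read 4.49, 4.40, 4.60 and 4.49 in GFP-labelled replicates 1 to 4, and 4.30, 4.12, 4.07 and 4.35 in the Nr4a1-labelled ones, in the same order. The groups did not overlap, but the gap between the lowest GFP-labelled and the highest Nr4a1-labelled array was narrow. The mean went from 4.49 ± 0.08 to 4.21 ± 0.14 (SD, n = 4), and Slit1 fell by 0.28 ± 0.07 (SE; 95% interval -0.45 to -0.12; limma adjusted p = 0.0194), lower in 4 of 4 pairs. The Cy3 reference at this spot was not level between groups: as separate channels, Cy5 differed by -0.65 and the reference by -0.37. The part of the reference channel in the ratio was not tested. The fall missed the threshold under 7 of 16 other settings, among them leaving out replicate 2 (-0.28, limma adjusted p = 0.0535) or replicate 3 (-0.20, adjusted p = 0.0672), and it remained a decrease under all 16.

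Robo1 and Robo2, the main Slit receptors of forebrain axons, were not called. Robo1 (A_55_P1985070) read 4.03, 3.94, 4.13 and 3.85 in GFP-labelled replicates 1 to 4, and 3.99, 3.86, 3.75 and 4.03 in the Nr4a1-labelled ones, in the same order. The groups overlapped, and the difference was -0.08 ± 0.08 (SE; limma adjusted p = 0.554) with a 95% interval of -0.27 to 0.11. Pair differences of -0.04, -0.08 and -0.38 in batch 1 stood beside 0.19 in batch 2.

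Robo2 (A_55_P2083919) read 4.60, 4.60, 4.88 and 4.58 in GFP-labelled replicates 1 to 4, and 4.81, 4.69, 4.67 and 4.65 in the Nr4a1-labelled ones, in the same order. GFP-labelled replicate 3 was the highest of the 8 arrays and the other 3 GFP-labelled arrays were the lowest. The difference was 0.04 ± 0.07 (SE; 95% interval -0.13 to 0.20; limma adjusted p = 0.753). A second Robo2 probe (A_55_P2083929), whose reference signal was well above background on 0 of 8 arrays, differed by -0.03 ± 0.08 (SE; 95% interval -0.20 to 0.15). For both receptors the intervals lie below the differences measured for Slit2 and Slit3.

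Robo3, the divergent receptor that governs midline crossing of commissural axons and in mammals does not bind Slits with high affinity, was dim. Its Cy5 signals were 69 to 114 units over all 8 arrays, and it was well above background on all but 1 array, which was GFP-labelled. The probe (A_55_P2144886) read 0.03, 0.20, 0.02 and -0.27 in GFP-labelled replicates 1 to 4, and 0.44, 0.23, 0.11 and 0.21 in the Nr4a1-labelled ones, in the same order. The groups overlapped although each pair was higher, by 0.40, 0.03, 0.09 and 0.48. The difference of 0.25 ± 0.08 (SE; 95% interval 0.07 to 0.44) missed the threshold (limma adjusted p = 0.0519). It passed under 6 of the 15 other settings that could test it, such as without replicate 2 (0.33, limma adjusted p = 0.0277), without replicate 3 (0.31, adjusted p = 0.0449) and with Agilent's own ratio (0.92, adjusted p = 0.031).

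Srgap1, first identified as a Robo1-binding GTPase-activating protein for Cdc42, had no probe with a firm reference signal. The brighter probe (A_55_P1978927) read 0.34, 0.60, 0.67 and 0.54 in GFP-labelled replicates 1 to 4, and 0.78, 0.60, 0.73 and 0.56 in the Nr4a1-labelled ones, in the same order. The groups overlapped, and the first pair carried nearly all of the difference of 0.13 ± 0.08 (SE; 95% interval -0.05 to 0.31; limma adjusted p = 0.268), with pair differences of 0.44, 0.0020, 0.06 and 0.02. On GFP-labelled replicate 1 this spot was bright in both channels, at 204 units in Cy5 and 167 in Cy3, and Cy3 was well above background on 1 of 8 arrays. The other probe (A_55_P2042510) was well above background in Cy5 on 1 of 8 arrays and was not tested.

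Srgap2, which drives filopodium formation and spine maturation, was lower in all 4 pairs but missed the threshold. The brighter probe (A_52_P112178) read 0.15, 0.06, 0.04 and -0.14 in GFP-labelled replicates 1 to 4, and -0.27, -0.07, 0.0027 and -0.27 in the Nr4a1-labelled ones, in the same order. The groups overlapped, and the difference was -0.18 ± 0.07 (SE; 95% interval -0.34 to -0.02; limma adjusted p = 0.0980). It passed under 1 of 16 other settings, the Cy5 channel alone (-0.32, limma adjusted p = 0.0253). The Cy3 reference at this spot differed by -0.14, and its part was not tested. The dimmer probe (A_55_P2043833) differed by -0.04 ± 0.06 (SE; 95% interval -0.17 to 0.09), an interval that overlaps that of the first.

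Srgap3, also known as WRP for its binding to the WAVE1 protein, gave similar values. The brightest of its 3 probes (A_51_P469951) read 3.47, 3.36, 3.36 and 3.03 in GFP-labelled replicates 1 to 4, and 3.13, 3.25, 3.07 and 3.09 in the Nr4a1-labelled ones, in the same order. GFP-labelled replicate 4 was the lowest array of all 8, and without it the groups would not overlap. The difference was -0.17 ± 0.08 (SE; 95% interval -0.34 to -0.0023; limma adjusted p = 0.132). It passed under 2 of 16 other settings, without replicate 4 (-0.25, limma adjusted p = 0.0499) and in the Cy5 channel alone (-0.35, adjusted p = 0.0177). At this spot too the Cy3 reference differed, by -0.18, and its part was not tested. The other probes differed by -0.16 ± 0.09 (A_55_P2137736; SE; 95% interval -0.36 to 0.03) and 0.02 ± 0.06 (A_55_P2108609; SE; 95% interval -0.12 to 0.16).

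**Figure D2:**
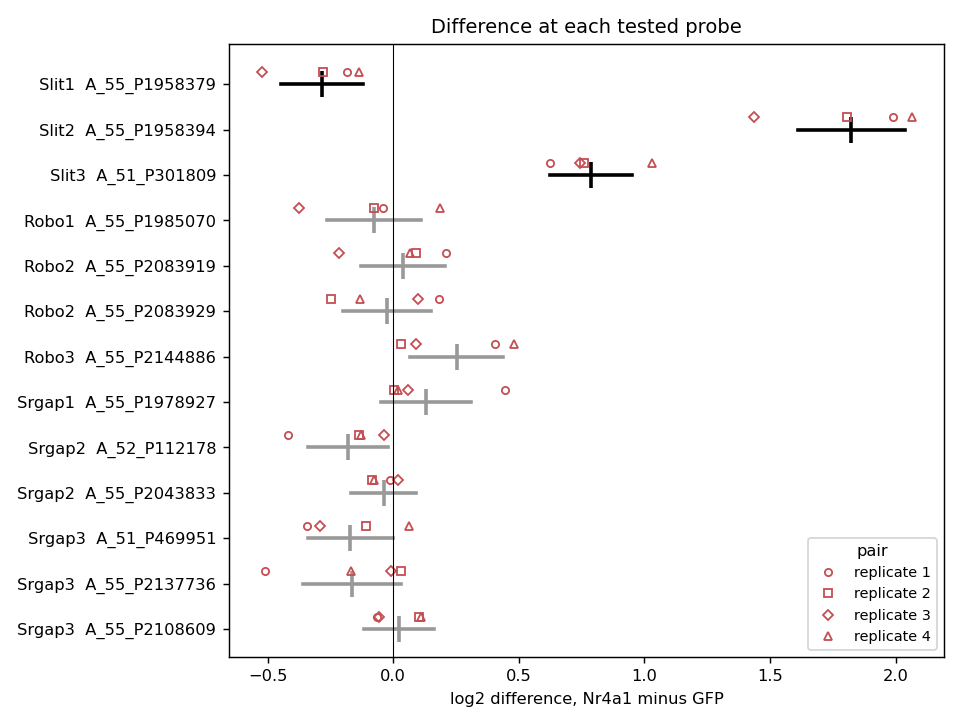
Nr4a1-labelled minus GFP-labelled difference (log2) for each of the 13 tested probes, with bars for the 95% interval of the limma fit and small red symbols for the 4 pairs. Black marks an adjusted p under 0.05 over all 25783 probes: the 3 Slit probes are black and the intervals of the 10 Robo and srGAP probes all end below 0.45.

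Fitted probe by probe, 3 of the 13 tested probes were called, where 23.8% of all tested probes were. The genes with several tested probes (Robo2, Srgap2 and Srgap3) had no called probe, and the 95% intervals of the probes of each gene overlapped. Slit1, Slit2 and Slit3 each had only the probe named above, with 1 spot per array. None of these calls therefore had another probe to set beside it. Levels are not compared between probes, because a ratio to the reference depends on the reference's own content of each transcript.

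**Figure D3:**
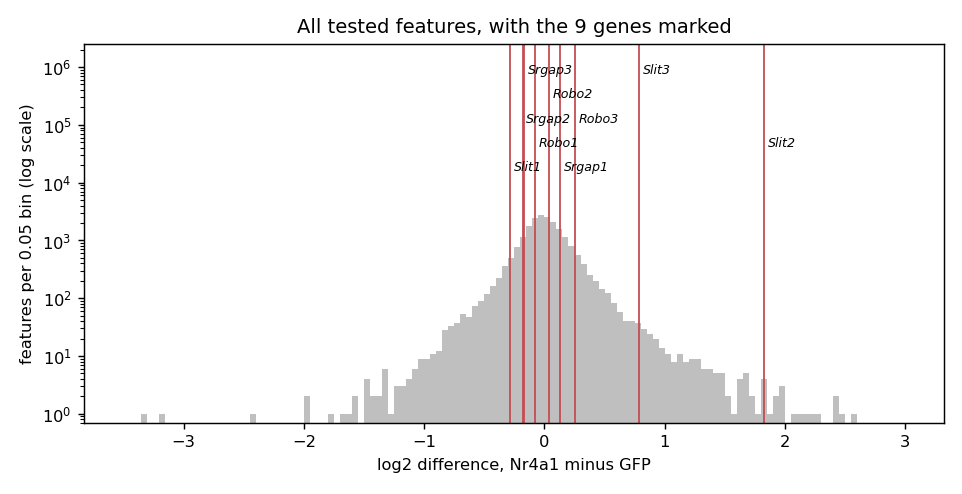
Number of features (log scale) by Nr4a1-labelled minus GFP-labelled difference (log2), over all 21116 features, with the 9 genes marked. Slit2 at 1.82 lies in the far upper tail and Slit3 at 0.79 above the bulk, while Slit1 and the Robo and srGAP genes lie within -0.28 to 0.25.

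Genes that surround the pathway were read from 4 lists of 60 genes, of which 58 were tested: 11 were called higher and 10 lower, or 36.2%, against 27.3% of all 15019 named genes tested. Their median difference was 0.0043, and the lists moved in no shared direction, with medians of -0.10, 0.10, 0.05 and -0.06.

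Of the 13 tested co-receptors and other ligands or receptors, 3 rose, 4 fell and 6 were not called. Those that fell were led by Flrt3, a leucine-rich repeat protein that binds Robo1, at -0.67 ± 0.07 (SE; limma adjusted p = 1.41e-04), lower in 4 of 4 pairs. Its relative Flrt2 (-0.40 ± 0.08), the heparan sulphate-carrying syndecan Sdc3 (-0.40 ± 0.06) and the endothelial Robo relative Robo4 (-0.23 ± 0.07) also fell. The rises were those of the syndecan Sdc1 (0.44 ± 0.07), the guidance cue Ntn1 (0.43 ± 0.07) and the adhesion protein N-cadherin, Cdh2 (0.34 ± 0.09). The call of Robo4 held under 4 of the 15 other settings that could test it, and that of Cdh2 under 9 of 16. The 2 syndecans of the list thus differed in opposite directions.

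Among the 15 tested genes of Robo and Slit processing and heparan sulphate synthesis, 4 rose and 1 fell. Hs6st2, a 6-O-sulphotransferase that modifies heparan sulphate, went from 0.35 ± 0.05 to 1.82 ± 0.23 (SD, n = 4), a rise of 1.48 ± 0.09 (SE; 2.79-fold; limma adjusted p = 3.79e-06). It was higher by 1.51, 1.52, 1.13 and 1.75 in the 4 pairs, and its call was lost only with slide as a random block (1.56, limma adjusted p = 0.384). Its relative Hs6st1 fell by 0.20 ± 0.07 (SE; limma adjusted p = 0.0461), a call that held under 5 of 16 other settings. Small rises were called for the heparan sulphate polymerase Ext1 (0.24 ± 0.07), the metalloprotease Adam10, which sheds Robo (0.24 ± 0.07), and the deubiquitinase Usp33, which acts on Robo1 (0.24 ± 0.08, higher in 3 of 4 pairs). These calls held under 8, 8 and 6 of 16 other settings.

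The 20 effectors of Robo inside the cell gave 2 rises and 3 falls. Dock1, a Rac activator, rose by 0.54 ± 0.08 (SE; limma adjusted p = 6.96e-04), and the Abl-binding adaptor Cables1 by 0.24 ± 0.07, which turned to -0.18 when no spot was left out of the background correction. The Rac and Cdc42 effector kinase Pak1 (-0.40 ± 0.07), the actin-binding Cap1 (-0.37 ± 0.07) and the srGAP substrate Cdc42 (-0.19 ± 0.06) fell. The call of Cdc42 held under 4 of 16 other settings, over which its difference ran from -0.23 to -0.055, and that of Cables1 under 8 of 16. The remaining 15, with the kinases Abl1 and Abl2, the Ena/VASP proteins Enah, Vasp and Evl, and the GTPases Rac1 and Rhoa among them, were not called.

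Of 10 relatives and partners of srGAPs, the F-BAR proteins Pacsin2 (0.40 ± 0.06; limma adjusted p = 7.79e-04) and Trip10 (0.37 ± 0.07) rose. The inhibitory postsynaptic scaffold Gphn, gephyrin, which binds Srgap2, fell by 0.33 ± 0.06 (SE; limma adjusted p = 0.00438), and the F-BAR protein Fnbp1 fell by 0.27 ± 0.09, lower in 3 of 4 pairs and called under 6 of 16 other settings. With slide as a random block, 0 of the 58 genes were called. When no spot was left out of the background correction, 1 was called, Hs6st2.

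**Figure D4:**
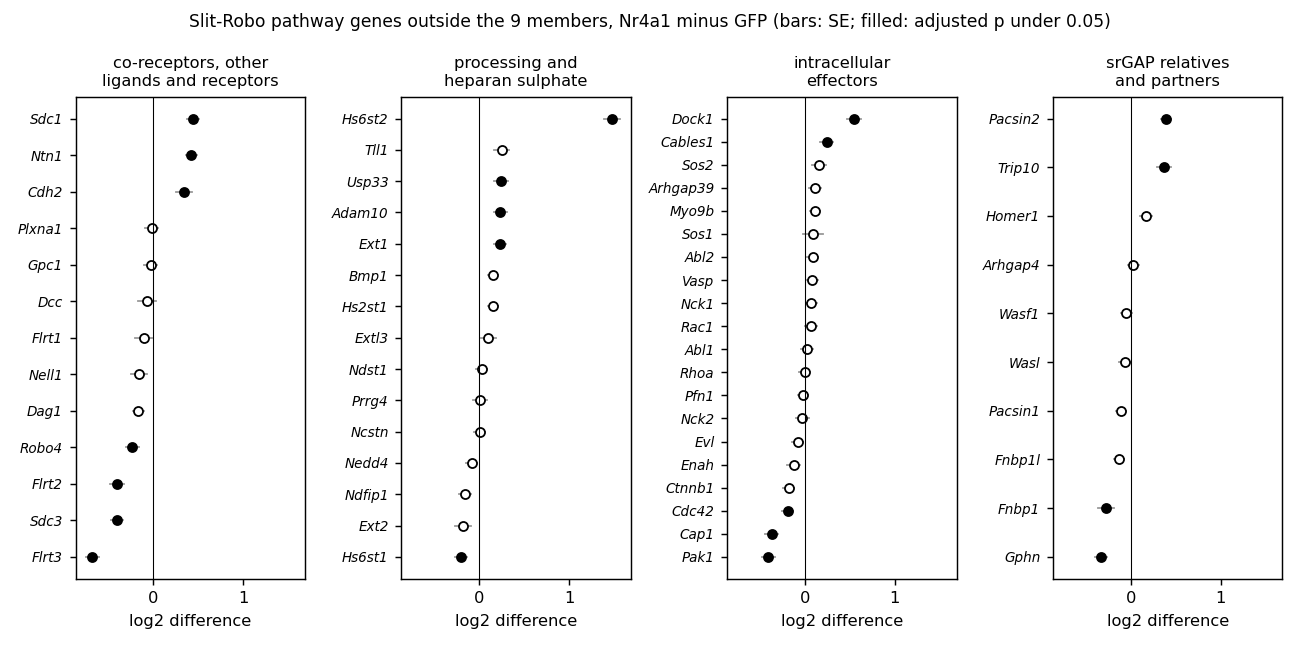
Nr4a1-labelled minus GFP-labelled difference (log2) for the 58 tested genes of the 4 lists, 1 panel per list, with bars for the SE and filled symbols for an adjusted p under 0.05. Hs6st2 at 1.48 is the only gene beyond 1, and called genes lie on both sides of 0 in every panel.

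Levels over the 8 arrays were compared with those of Slit2 by the root mean square distance between log2 ratios centred on each gene's mean. Of the 5 named genes most like it, 4 are given here: Plch1 (distance 0.0970), Ngfr (0.145), Tyrp1 (0.171) and 4930555G01Rik (0.189). They are a phospholipase C, the p75 neurotrophin receptor, a melanosomal protein and an uncharacterised transcript. Their differences ran from 1.67 to 1.97, beside the 1.82 of Slit2. The difference of Tyrp1 was 0.099 with Agilent's own ratio, a setting in which Slit2 stayed at 1.82. Those most like Slit3 were Slc41a3 (distance 0.0687), Sp8 (0.0864), Nt5dc3 (0.0865), Vash2 (0.0873) and Wfs1 (0.0959), with differences of 0.73 to 0.84. For Sp8 the mean over its probes differed by 0.098. The measure favours genes whose groups differ by a like amount, and it is a description.

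The cultures carried markers of several cell types, read here because Slits are made by neurons, glia and mesenchymal cells. The 14 neuron markers were all measured. Their summed normalised Cy5 signal was 373644 to 394574 units on the GFP-labelled arrays and 332275 to 363013 on the Nr4a1-labelled arrays. Of these markers, 2 were called higher (Nefm, 0.30 ± 0.08, and Eno2, 0.29 ± 0.07) and 1 lower (Syt1, -0.25 ± 0.07). The other 11 were not called, and the median difference of the list was -0.04. The 10 oligodendrocyte lineage markers summed to 18313 to 25913 against 35160 to 47432 units, with 5 higher and 2 lower, among which Mbp fell by 0.94 ± 0.09. Of 9 tested radial glia and progenitor markers 4 rose, led by Nes (0.65 ± 0.07) and Vim (0.61 ± 0.06), with sums of 82732 to 88674 against 105598 to 116936 units, and Eomes was well above background on 0 of 8 arrays. The 10 astrocyte markers, 3 of them higher (Aqp4, 0.43 ± 0.10; Gja1, 0.37 ± 0.08), summed to 188405 to 231921 against 210644 to 241553 units. Nefm and Aqp4 were lower, not higher, when no spot was left out of the background correction (-0.21 and -0.21) and with Agilent's own ratio (-0.25 and -0.10). The part of these cell types in the rises of Slit2 and Slit3 was not tested.

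Markers of other possible Slit sources moved in both directions. The 10 meningeal and fibroblast markers summed to 10183 to 10986 against 9720 to 10915 units. Of these, 2 were called lower, led by Lum (-1.0 ± 0.08), and 7 were not called. The 1 called higher was Pdgfra (0.76 ± 0.06), which is also in the oligodendrocyte list. Of the 6 Cajal-Retzius markers Calb2 fell by 0.92 ± 0.10 and Lhx5 rose by 0.26 ± 0.07, and the list's sum was 4714 to 5016 against 2309 to 2876 units. The other 4 members were not called, with differences of -0.10 to 0.08, and Calb2 itself differed by -0.37 with Agilent's own ratio, where it was not called. The lists of endothelial cells and microglia were partly detected and were summed over their tested members. Among 5 tested endothelial markers Flt1 rose (0.58 ± 0.06), Vwf fell (-0.44 ± 0.06) and 3 were not called. Their sums were 2093 to 2327 against 2334 to 2622 units. Cdh5, Emcn, Esam, Tek and Tie1 were well above background on 0 arrays. Microglia had 5 tested markers, of which Csf1r fell (-0.75 ± 0.07) and 4 were not called. Their sums were 17486 to 20053 against 15800 to 17651 units. C1qc and P2ry12 were well above background on 0 arrays. Of 6 tested mural cell markers Cspg4 (0.43 ± 0.07), which is also 1 of the 5 higher oligodendrocyte lineage markers, and Notch3 (0.19 ± 0.06), called under 6 of 16 other settings, rose, and the list's sums were 5619 to 6094 against 5564 to 5907 units.

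**Figure D5:**
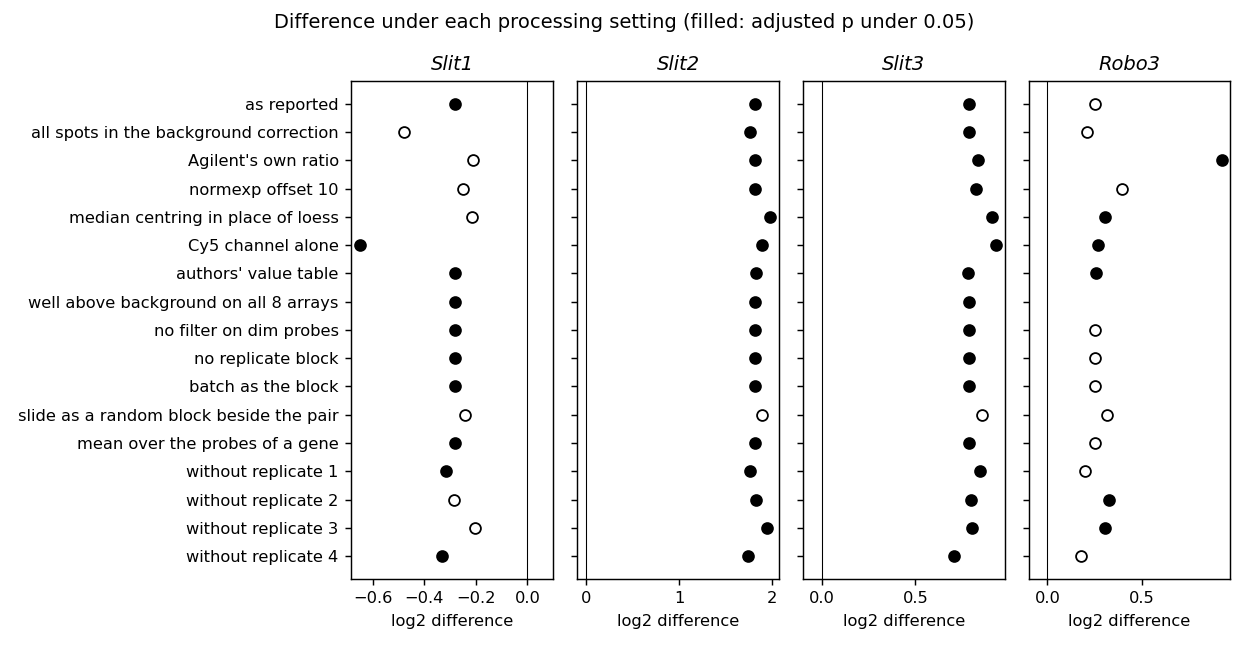
Nr4a1-labelled minus GFP-labelled difference (log2) of Slit2, Slit3, Slit1 and Robo3 under the 17 processing settings, with filled symbols for a limma adjusted p under 0.05. Slit2 stays between 1.74 and 1.98 and Slit3 between 0.71 and 0.93, both open only with slide as a random block, while Slit1 and Robo3 switch between filled and open.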

How the data were processed

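RNA of 8 culture samples, 4 labelled GFP and 4 labelled Flag-Nr4a1, was read on 2-colour Agilent mouse arrays, with culture RNA in Cy5 and reference RNA in Cy3. The deposited scanner files hold median signal and background intensity per spot, processed intensity and a log10 ratio of Cy5 over Cy3; per the file headers, the software was Agilent Feature Extraction, version 11.0.1.1. The deposited value table holds log2 ratios from the authors for 24275 probes, with no stated scale, centring or direction. Its columns correlated with the ratios computed here at 0.998 to 1.00 (slopes 0.992 to 1.01, medians 0.0240 to 0.0312), so it was read as log2 of culture over reference. The submitters' processing notes name limma without settings.

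Median signals ran from 137 to 194 in Cy5 and 141.5 to 154 in Cy3 over backgrounds of 29 to 32, and 60.9% to 69.2% of spots were well above background in Cy5. The number of arrays limits the precision.

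Spots with a non-uniform background were left out before the background correction, including 37 on Nr4a1-labelled replicate 2. Spots flagged as outliers, 191 to 285 per array, had weight 0 in the loess and their ratios were left out. The setting with all spots in the background correction took back only the former. Background was corrected by normexp with offset 50, which shrinks differences of dim probes. Ratios were normalised by loess, with control spots at weight 0, and spots of a probe were averaged. Testing required Cy5 well above background on 4 or more of 8 arrays and 3 or more values per group, and the brightest probe by mean Cy5 stood for a gene. RefSeq (GRCm38.p6) named 26581 probes. Separate channels were taken after loess and Aquantile normalisation.

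Groups were compared with limma 3.58.1 (R 4.3.3), two-sided, with the labelled pair as a block and Benjamini-Hochberg adjustment over 21116 features. Deviations from group means correlated within pairs at -0.10, 0.28, -0.016 and 0.43. The fit was also run on simulated data with independent noise on each array. That simulation held no pair, batch or slide effect, so it does not bear on these. The members, the gene lists and the settings were chosen with earlier results of these data known. Genes named are all 9 members, the called genes of the 4 pathway lists (at most 5 in each direction), the 5 genes most like Slit2 and Slit3, and the 2 largest called differences of each marker list. Syt1, the neuron marker called lower, is named beside them. Other genes, named as not called, were picked from the lists. Some genes that this rule names are not reported here. Of the 60 pathway genes, 2 were not matched to a probe. Other settings covered background correction, normalisation, channel, the authors' table, the filter on dim probes, the block, slide, the probe rule and leaving out each replicate.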

Additional observations from a re-analysis of the deposited data

Results flagged for a closer look

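Robo2 on GFP-labelled replicate 3 stood apart from its group. Its log2 ratio was 4.88, while the other 3 GFP-labelled arrays lay between 4.58 and 4.60, so the gap to the nearest array was 0.933 of the group's range, above Dixon's critical value for 4 samples. Chance marks about 1 group in 20 in this way, and 1 of the 28 groups examined (14 probes in each of 2 groups) was marked.

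At 2 of the 13 tested probes, both of genes that were not called, the pair of batch 2 had the opposite sign to all 3 pairs of batch 1. With 4 pairs, chance alone also gives this pattern at some probes. Robo1 differed by 0.19 in batch 2 and by -0.38 to -0.04 in batch 1, and Srgap3 by 0.064 in batch 2 and by -0.35 to -0.11 in batch 1. Batch 2 holds 1 pair, and its Nr4a1-labelled array was the only array on slide 3. Batch and slide therefore cannot be told apart here, and the difference between batches was not tested.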

How the results depend on the processing

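Slit2 and Slit3 kept their direction under all 16 other settings and their call under 15, at 1.74 to 1.98 and 0.71 to 0.93, losing it only when slide was added as a random block (consensus correlation 0.862), where 8 features were called higher and 4 lower, 0 members in either direction and 0 and 0 pathway genes. Against 2711 features higher and 2434 lower, no replicate block gave 2350 and 2125, with 2 members higher and 1 lower (Slit2 at limma adjusted p = 2.25e-07). All spots in the background correction gave 130 and 98, with 0 members lower and 1 and 0 pathway genes. Agilent's own ratio gave 1511 and 1350, with 0 members lower and 6 and 5 pathway genes. An offset of 10 left 0 members lower and 6 and 6 pathway genes. Median centring in place of loess moved the median of all features to 0.06 and gave 3462 higher and 1262 lower (73.3% of calls higher against 52.7%), with 0 members and 5 pathway genes lower. The Cy5 channel alone called 3 members lower, and no filter on dim probes 6 pathway genes lower. Leaving out 1 replicate gave 1768 to 2596 features higher and 1616 to 2004 lower, 2 to 3 members higher and 0 to 2 lower, and 6 to 12 pathway genes higher and 6 to 7 lower. Robo1 ranged from -0.16 to 0.023 and Robo2 from -0.019 to 0.12 when 1 replicate was left out. Signs turned for Robo2 with all spots (-0.52), an offset of 10 (-0.0013), the authors' table (-0.039, its other probe) and without replicate 1 (-0.019), for Robo1 with median centring (0.012) and without replicate 3 (0.023), and for Srgap1 in Cy5 alone (-0.19). They also turned with all spots for Cables1 (-0.18), Aqp4 (-0.21) and Nefm (-0.21), and with Agilent's ratio for Aqp4 (-0.10) and Nefm (-0.25). The causes were not tested. Robo3 was not measured where Cy5 had to be well above background on all 8 arrays, nor Srgap1 in the authors' table, where its only probe did not pass the filter on dim signals. Low signal limits Robo3 and Srgap1.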
